A study of Caenorhabditis elegans with 9 samples.

Results

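The 6 genes described here encode the ferroportins (*fpn-1.1*, *fpn-1.2* and *fpn-1.3*) and the SMF family of divalent metal transporters (*smf-1*, *smf-2* and *smf-3*) of the nematode *Caenorhabditis elegans*. They were chosen by name: every probe set whose only gene symbol in the platform annotation is one of these 6 was taken, which gave 6 probe sets, 1 per gene, for 6 of the 17118 genes with a probe set of their own. The array held 22548 gene probe sets in all. A further probe set carries *smf-3* together with *daao-1* and was not used. The study grew synchronized F2 larvae in the axenic liquid medium mCeHR-2 with hemin, the chloride of iron(III) protoporphyrin, at 4, 20 or 500 uM, and took total RNA from whole worms at the late L4 larval stage for Affymetrix whole genome arrays. There were 9 arrays, 1 for each of 3 biological replicates (A, B and C) at each concentration. The 20 uM worms are the study's reference group, and all groups shared the medium and the stated stage of harvest. Adult-stage markers, given below, were higher at 4 uM than in the other groups. The strain and the iron content of the medium apart from hemin are not given in the sources used here.

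Ferroportin is, in vertebrates, the exporter that moves ferrous iron out of cells, and *C. elegans* carries several related genes. SMF proteins belong to the NRAMP family, like the vertebrate transporter DMT1, and couple the uptake of ferrous iron, manganese and other divalent metals to protons. In *C. elegans* iron shortage acts through the hypoxia factor HIF-1, which lowers transcription of the ferritin genes and raises that of *smf-3* in the intestine. The worm makes no heme of its own and must take it up from its food, so hemin in this medium is a source of both heme and iron.

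Each value below is a log2 expression value as the authors deposited it, and each difference is a difference between group means on the log2 scale from limma, with its standard error (SE) and a p-value adjusted by the Benjamini-Hochberg method over all probe sets tested. Values lay between 2.02 and 14.37 over the table. Probe sets in the dimmest 25% by mean over all arrays, below 3.75, were left out of the main tests. Of the 6 transporters 4 passed this filter (*fpn-1.1*, *fpn-1.2*, *smf-1* and *smf-3*), and *fpn-1.3* and *smf-2* did not. Levels of different probe sets cannot be set against each other, since probes differ in how strongly they bind.

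One array, replicate A of the 4 uM group, was unlike the rest. Across probe sets its Spearman correlation with any other array was at most 0.985, while no correlation among the remaining 8 was under 0.990. Late L4 worms have little yolk protein RNA and little adult collagen RNA. The summed level of 6 measured adult-stage markers, 5 yolk protein genes (vit) and the adult collagen gene *col-19*, was 10.16 to 10.80 (log2 of the sum) on the 4 uM arrays, 8.29 to 9.27 at 20 uM and 7.40 to 8.63 at 500 uM, with no overlap between 4 uM and the others. All 10 measured intestine markers passed the filter, with a summed level of 14.12 to 14.50, 14.33 to 14.46 and 14.42 to 14.54 at 4, 20 and 500 uM.

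The ferroportin gene *fpn-1.2* (R09B5.4) was lower at 4 uM hemin than at either higher concentration. It read 5.89, 5.90 and 5.84 on the 4 uM arrays A, B and C. At 20 uM it read 7.08, 6.88 and 6.76. At 500 uM it read 6.82, 6.74 and 6.76. Every 4 uM array lay below every array of the other groups, and the 20 and 500 uM groups overlapped. The transcript fell by 1.03 from 20 to 4 uM hemin (SE 0.10, 95% interval -1.25 to -0.80, limma adjusted p = 0.000849), so that it stood 2.04-fold higher at 20 uM. It was higher by 0.90 at 500 than at 4 uM (SE 0.10, 0.67 to 1.12, limma adjusted p = 0.00137), or 1.86-fold. These contrasts share the 4 uM arrays and are not independent of each other. Between 500 and 20 uM the difference was -0.13 (SE 0.10, -0.36 to 0.09, limma adjusted p = 0.906). A change between 20 and 500 uM as large as that between 4 and 20 uM lay outside this interval.

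**Figure D1:**
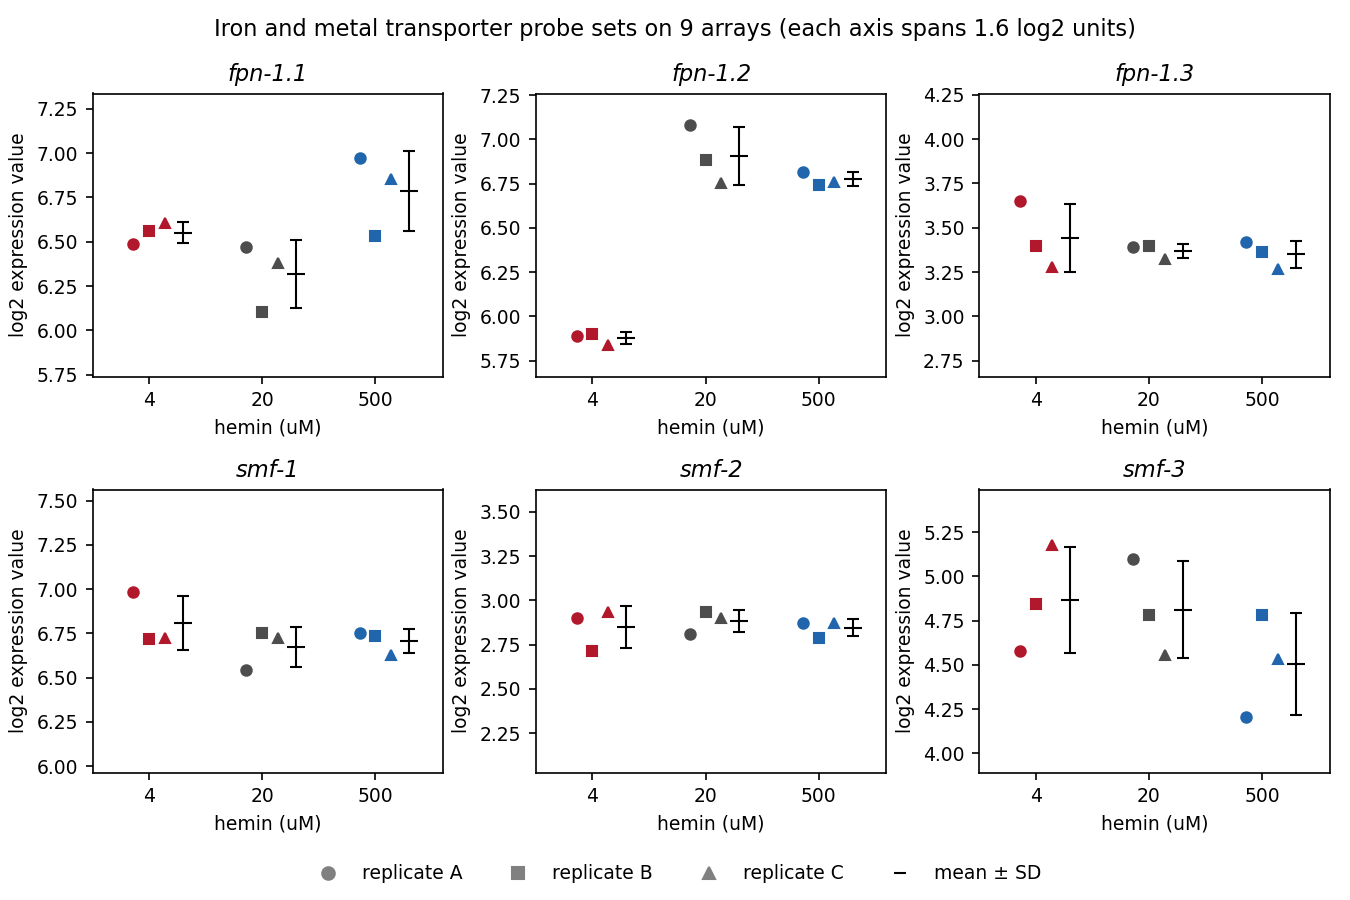
Log2 expression value (vertical axis) of the 6 transporter probe sets against hemin concentration (horizontal axis, uM); symbols are the replicates A, B and C and the black bars the mean ± SD of 3 arrays. The *fpn-1.2* values at 4 uM (5.84 to 5.90) lie below all values at 20 and 500 uM (6.74 to 7.08), while the concentrations overlap in the 3 SMF genes and *fpn-1.3*.

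Within groups *fpn-1.2* varied little, with an SD of 0.03 on the 4 uM arrays, 0.16 at 20 uM and 0.04 at 500 uM (n = 3 each). The outlying array did not set the 4 uM value: 4 uM replicate A deviated by 0.02 from the mean of replicates B and C, and without it the fall was 1.04 (SE 0.11, adjusted p = 0.000724). By p-value *fpn-1.2* ranked 28 of 16911 for 4 against 20 uM and 59 of 16911 for 500 against 4 uM. Over the 3 groups its F statistic was 62.5 (limma adjusted p = 0.001). Of all tested probe sets 1.62% passed this F-test. It was the only one of the 4 tested transporters past the threshold in any contrast. In the comparison of 4 with 20 uM 1 of 4 was lower, against 0.231% of all tested probe sets, and 0 of 4 were higher, against 0.68%. In that of 500 with 4 uM 1 of 4 was higher, against 0.769%. In that of 500 with 20 uM 0 of 4 passed in limma, against 0.242%, and 1 of 4 (*fpn-1.1*) had an unadjusted p under 0.05, against 6.65%. The change also exceeded the 1.6-fold that the study used as its limit, which together with the adjusted p held for 0.727% of probe sets at 4 against 20 uM and 1.67% at 500 against 4 uM. Since RNA came from whole worms, fewer cells with the transcript and less transcript per cell cannot be told apart. The adult-stage markers given above also differed between 4 uM and the other groups. At 4 against 20 uM 3 of 6 were higher, against 0.68% of all tested probe sets. Without 4 uM replicate A 6 of 6 were higher there, where 315 of 16911 probe sets passed in either direction. In the main fit of 500 against 4 uM 6 of 6 were lower, with a list median of -2.48. In that fit 350 of 16911 probe sets passed in either direction. The part of these markers in either *fpn-1.2* difference was not tested. Of 10 intestine markers 0 passed in limma in any contrast. At an unadjusted p under 0.05 there was 1 in each comparison with 20 uM, *elt-2*, which encodes the intestinal GATA factor, with differences of 0.38 at 4 uM (SE 0.13, adjusted p = 0.354) and 0.33 at 500 uM (SE 0.13, adjusted p = 0.637).

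**Figure D2:**
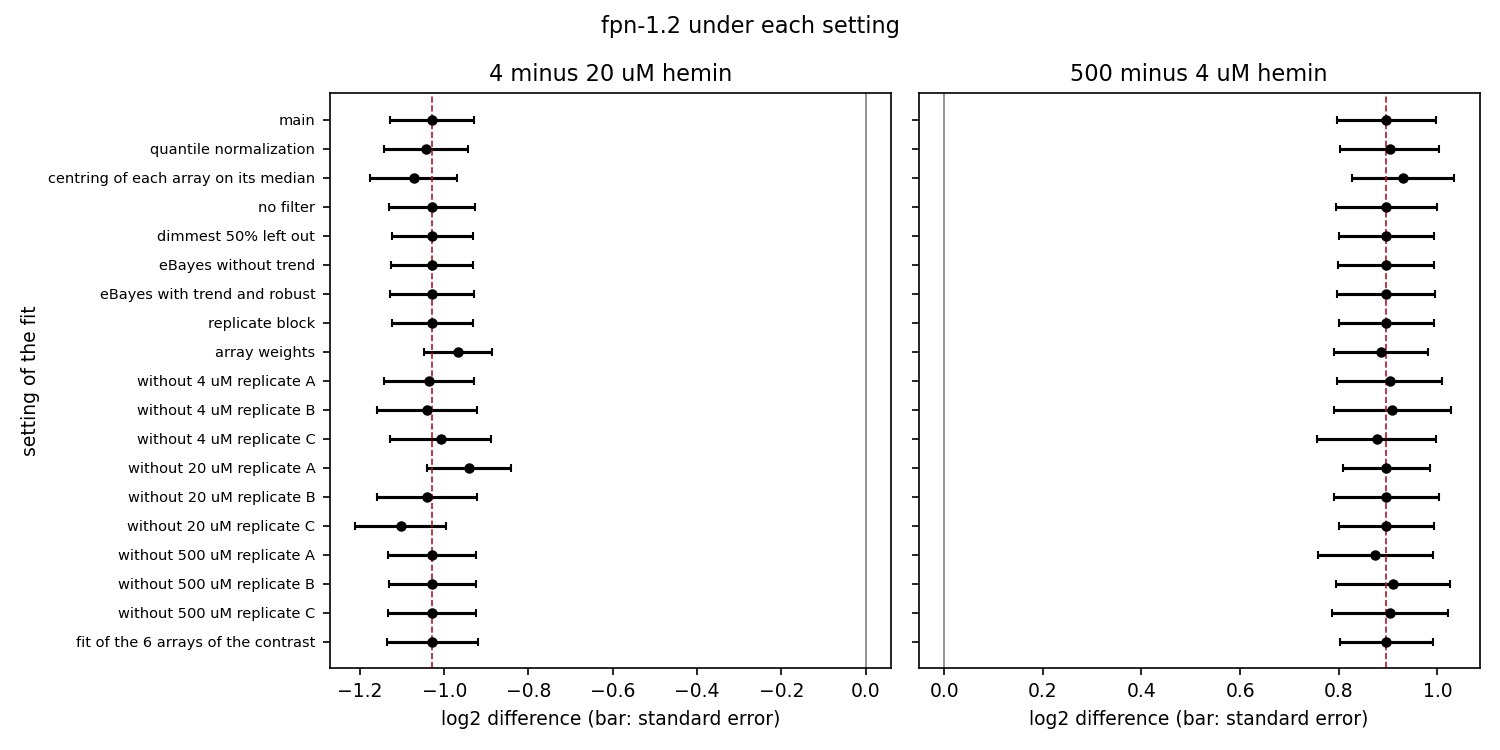
Log2 difference of *fpn-1.2* (horizontal axis, bars are standard errors) for 4 minus 20 uM and 500 minus 4 uM hemin under each setting of the fit (vertical axis); the dashed line marks the value reported. The differences run from -1.104 to -0.941 and from 0.874 to 0.931, on one side of 0 in every setting shown.

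The paralog *fpn-1.1* (Y37E3.16) showed its lowest values at 20 uM. It read 6.49, 6.56 and 6.60 at 4 uM, and 6.47, 6.10 and 6.38 at 20 uM. At 500 uM it read 6.97, 6.53 and 6.85. The 20 uM arrays lay below all arrays of the other groups, by a margin of 0.01 at the closest, and the 4 and 500 uM groups overlapped. Counted over the 4 tested transporters, 2 had groups that did not overlap at 4 against 20 uM, where 13.4% of all tested probe sets did. The count was 1 of 4 at 500 against 20 uM (16.8%) and, through *fpn-1.2*, 1 of 4 at 500 against 4 uM (14.6%). The difference between 500 and 20 uM was 0.47 (SE 0.14, 95% interval 0.16 to 0.77), with an unadjusted p = 0.00657 and an adjusted p = 0.381 in limma. It ranked 291 of 16911 by p-value. The differences were 0.23 (SE 0.14, adjusted p = 0.694) for 4 minus 20 uM and 0.23 (SE 0.14, adjusted p = 0.51) for 500 minus 4 uM, and the F-test over the groups gave an adjusted p = 0.322. Single arrays moved these uncalled values: without 20 uM replicate B the 4 minus 20 difference was 0.12, and the 500 minus 4 difference was 0.14 without 500 uM replicate A and 0.36 without 500 uM replicate B. The order of its means was thus 20, 4 and 500 uM, with no neighbours that differed past the threshold. At 4 against 20 uM its interval ran from -0.07 to 0.54 and did not hold a fall of the size seen in *fpn-1.2*.

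The third gene of the family, *fpn-1.3* (R08F11.6), is listed as a pseudogene in the RefSeq annotation. Its probe set read 3.27 to 3.65 on the 9 arrays, below the filter. In the fit without a filter its differences were 0.07, -0.02 and -0.09 (SE 0.10 each) for 4 minus 20, 500 minus 20 and 500 minus 4 uM, with adjusted p of 0.757 or more. Its highest value, 3.65, came from 4 uM replicate A, and without that array the first of these was -0.03. At this level no call of presence could be made, since detection calls were not used here.

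Whether the ferroportin genes followed hemin differently was tested on the difference of 2 probe sets on the same array, in which binding strength cancels when groups are compared. The difference *fpn-1.2* minus *fpn-1.1* was -0.59, -0.66 and -0.77 at 4 uM. It was 0.61, 0.78 and 0.37 at 20 uM and -0.15, 0.21 and -0.10 at 500 uM. The 3 concentrations did not overlap in this measure. Relative to 20 uM it had changed by -1.26 at 4 uM and by -0.60 at 500 uM. An exact permutation test over all 1680 arrangements of the 9 arrays, by an F statistic and so two-sided, gave p = 0.00357, the smallest it can give, and p = 0.0214 adjusted over the 6 pairs compared within families. For *fpn-1.2* minus *fpn-1.3* the group means were 2.44 ± 0.17, 3.54 ± 0.14 and 3.42 ± 0.06 (SD, n = 3) at 4, 20 and 500 uM, with an exact permutation p = 0.0107 and an adjusted p = 0.0321. Since *fpn-1.3* was below the filter and varied little, this pair largely restates the change of *fpn-1.2* itself and is no separate evidence that the genes differ. Its adjusted p rose to 0.0643 without 20 uM replicate A, 500 uM replicate A or 500 uM replicate B. The pair *fpn-1.1* and *fpn-1.3* gave an adjusted p = 0.25 in the exact permutation test.

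**Figure D3:**
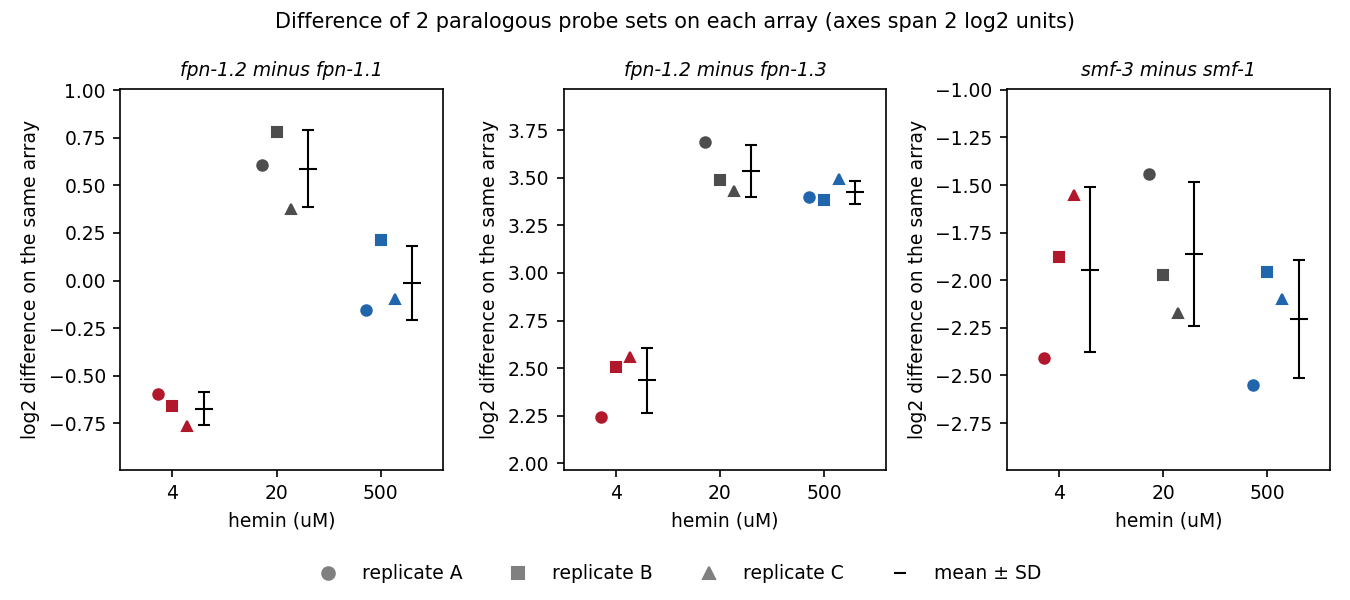
Log2 difference of 2 paralogous probe sets on the same array (vertical axis) against hemin concentration (horizontal axis, uM), for 3 of the 6 pairs; symbols are replicates and black bars the mean ± SD of 3 arrays. The difference *fpn-1.2* minus *fpn-1.1* runs from -0.77 to -0.59 at 4 uM and from 0.37 to 0.78 at 20 uM; *smf-3* minus *smf-1* overlaps between all concentrations.

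The uptake side was represented by the SMF genes. Of these 0 of 2 tested passed in limma in any contrast, and in the main fit 0 had an unadjusted p under 0.05. The gene *smf-3* (Y69A2AR.4), an intestinal importer of manganese and iron in the worm, read 4.58, 4.84 and 5.17 at 4 uM. At 20 uM it read 5.10, 4.78 and 4.55, and at 500 uM 4.21, 4.78 and 4.53. All 3 groups overlapped, although the lowest value of all came from the highest concentration. Its differences were 0.05 (SE 0.20, 95% interval -0.39 to 0.49, adjusted p = 0.962) for 4 minus 20 uM, -0.31 (SE 0.20, -0.75 to 0.14, adjusted p = 0.864) for 500 minus 20 uM and -0.36 (SE 0.20, -0.80 to 0.08, adjusted p = 0.49) for 500 minus 4 uM. Leaving out 1 array at a time, the 500 minus 20 difference ran from -0.44 to -0.16 and the 500 minus 4 difference from -0.50 to -0.20. Without 4 uM replicate A the 500 minus 4 difference was -0.50 (limma unadjusted p = 0.0271, adjusted p = 0.362). Its unadjusted p in limma was also under 0.05 without 500 uM replicate B (0.0452) and with array weights (0.029). The spread within groups was large for this probe set, with a pooled SD of 0.29, above that of 91.3% of gene probe sets. Changes as large as the fall of *fpn-1.2* lay outside its intervals.

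Values of *smf-1* (K11G12.4), an SMF transporter of the intestine and neurons, stayed within a span of 0.44. It read 6.98, 6.72 and 6.73 at 4 uM. At 20 uM it read 6.54, 6.75 and 6.73, and at 500 uM 6.76, 6.74 and 6.63. The groups overlapped throughout. The differences were 0.14 (SE 0.11, 95% interval -0.10 to 0.38), 0.03 (SE 0.11, -0.21 to 0.27) and -0.10 (SE 0.11, -0.34 to 0.14) for 4 minus 20, 500 minus 20 and 500 minus 4 uM, with adjusted p of 0.713 or more in limma. Its highest value came from 4 uM replicate A, which deviated by 0.26 from replicates B and C, and without that array the first difference was 0.05. Its probe set carries the suffix by which Affymetrix marks probes that can match several transcripts.

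The neighbouring gene *smf-2* (K11G12.3), which lies next to *smf-1* on the chromosome and is known from the pharynx, read 2.72 to 2.94 on all 9 arrays, where the lowest value of the table was 2.02. It was below the filter, and only 7.66% of gene probe sets had a lower mean. In the fit without a filter its differences were -0.03, -0.04 and -0.01 (SE 0.07 each), with adjusted p of 0.937 or more. At such values a difference in transcript may not be seen. Of the 3 pairs within the SMF family none passed the exact permutation test of the difference on the same array, with p adjusted over the 6 pairs of 0.529 for *smf-3* and *smf-1*, 0.463 for *smf-3* and *smf-2* and 0.386 for *smf-1* and *smf-2*. Unadjusted, 0 of these p-values were under 0.05.

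**Figure D4:**
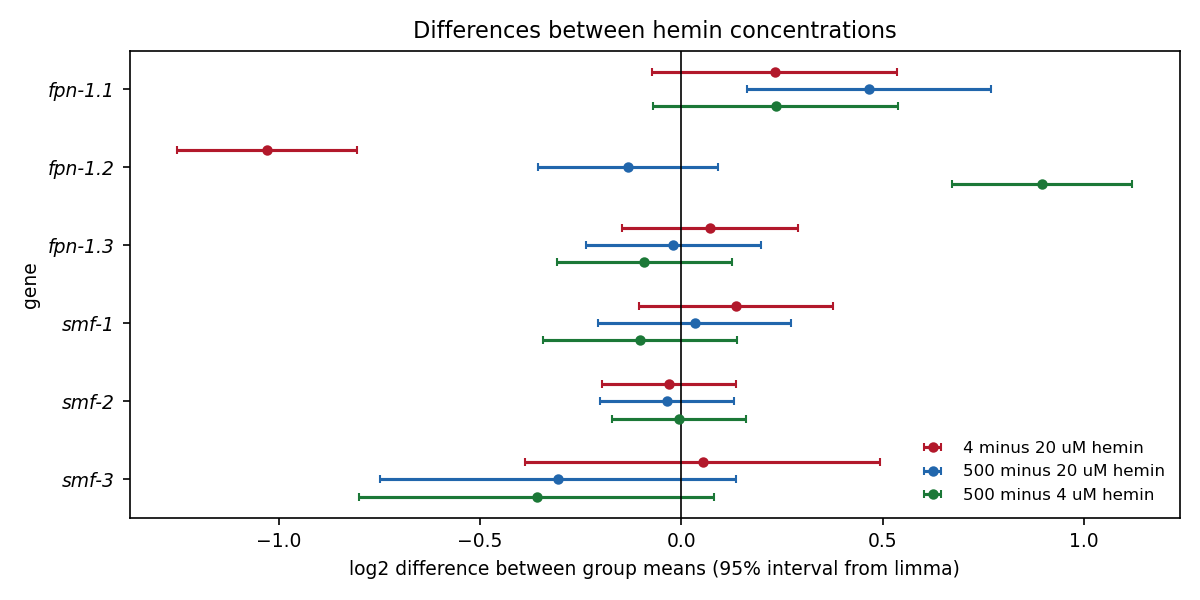
Log2 difference between group means (horizontal axis, with the 95% interval from limma) for the 6 transporter genes (vertical axis) and 3 contrasts, marked by colour. The intervals of *fpn-1.2* for 4 minus 20 uM (-1.25 to -0.80) and 500 minus 4 uM (0.67 to 1.12) exclude 0, as does that of *fpn-1.1* for 500 minus 20 uM (0.16 to 0.77), which did not pass after adjustment.

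Over the 4 tested transporters the median difference was 0.09 for 4 minus 20 uM, -0.05 for 500 minus 20 uM and 0.07 for 500 minus 4 uM. The medians over all 16911 tested probe sets were 0.02, 0.01 and 0.00047. The median standard error of all tested probe sets was 0.12. In simulated data with known changes, limma recovered 86% of log2 changes of 1 and 34% of changes of 0.5 for 4 minus 20 uM. For 500 minus 20 uM it recovered 32% of changes of 0.5, so changes of that size often went uncalled. Each simulated contrast held 50 changes of each size (0.5, 1, 1.5 and 2). In the real data 41 probe sets passed for 500 minus 20 uM. The adjusted threshold is stricter where fewer probe sets change, so the 32% may be too high for that contrast. These rates are averages over probe sets drawn at random. They were not worked out for *fpn-1.1* or for *smf-3*, whose spread was above that of 91.3% of gene probe sets.

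Other genes of iron handling were described from lists. Of 4 genes of iron storage and sensing 1 rose at 4 against 20 uM hemin, against 0.68% of all tested probe sets, and 3 did not pass. The ferritin gene *ftn-1*, whose product stores iron, had a mean of 6.84 at 20 uM and rose by 1.66 at 4 uM (SE 0.32, limma adjusted p = 0.0494), opposite in sign to *fpn-1.2*. That call was lost in 7 of 9 fits that left out 1 array (adjusted p up to 0.23; it held without 4 uM replicate A or C) and in 6 of 9 other settings. The second ferritin gene *ftn-2* differed by 0.47 (SE 0.16, adjusted p = 0.351), the aconitase gene *aco-1* by -0.19 (SE 0.15, adjusted p = 0.765) and the frataxin gene *frh-1* by 0.07 (SE 0.10, adjusted p = 0.868). At 500 against 20 uM 0 of these 4 passed in limma, with 1, *ftn-1*, at an unadjusted p = 0.022 and a difference of 0.87. The list median was 0.27 at 4 and 0.19 at 500 against 20 uM.

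Of 6 tested genes of mitochondrial iron and iron-sulfur clusters 0 passed in limma in any contrast, with medians of 0.05, 0.03 and -0.01 and 0 at an unadjusted p under 0.05. Of 4 genes that control HIF-1 0 passed in limma. The largest difference there was in *rhy-1*, a regulator of HIF-1 that is itself a HIF-1 target: its mean was 8.39 at 20 uM, with a difference of -0.61 (SE 0.25, adjusted p = 0.53) at 4 and of -1.19 (SE 0.25, unadjusted p = 0.000934, adjusted p = 0.147) at 500 against 20 uM. Without 4 uM replicate A the *rhy-1* difference passed in both of these comparisons, the only one of the 4 genes to do so. In those fits 315 (4 against 20 uM) and 182 (500 against 20 uM) of 16911 probe sets passed in either direction. Of 20 zinc and copper transport genes 1 rose at 4 against 20 uM, against 0.68% of all tested probe sets. This was *cuc-1*, a copper chaperone gene, with a rise of 0.69 (SE 0.13, limma adjusted p = 0.0425). That call was lost in 7 of 9 fits without 1 array (adjusted p up to 0.177) and in 3 of 9 other settings. It held without 4 uM replicate A or 500 uM replicate B. At 500 against 20 uM 0 of the 20 passed in limma, and the zinc transporter gene *ttm-1*, with the smallest p, differed by 0.40 (unadjusted p = 0.00447, adjusted p = 0.306). For comparison, 4 of 7 tested heme transport genes rose at 4 against 20 uM, against 0.68% of all tested probe sets, with a list median of 2.46. That list was drawn up with earlier results of these data known, so its count is a description and no test. One of the 4, *hrg-3*, had means of 2.37 at 20 uM and 2.54 at 500 uM, below the filter level of 3.75. It passed the filter through its 4 uM mean of 8.03.

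The genes whose values over the 9 arrays were most like those of *fpn-1.2* were F49C12.7 (Pearson r = 0.981), Y51H4A.5 (0.965) and *ech-7* (0.958), an enoyl-CoA hydratase gene, among 15848 probe sets with 1 symbol past the filter. Being chosen for this likeness, they are also lower on the 4 uM arrays, and their values are given as a description with no test. At 4, 20 and 500 uM the means were 5.82, 7.37 and 7.07 for F49C12.7. They were 3.35, 4.13 and 4.08 for Y51H4A.5 and 8.19, 8.67 and 8.75 for *ech-7*. The 4 uM mean of Y51H4A.5 lay below the filter level of 3.75, and this probe set passed the filter through its 20 and 500 uM values. The correlations of Y51H4A.5 and *ech-7* rest largely on the distance of the 4 uM arrays from the rest: over the 6 arrays of 20 and 500 uM they were 0.34 and 0.24. That of F49C12.7 was 0.73 over these 6 arrays.

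In the order of protein-coding genes and pseudogenes on the chromosome, *fpn-1.2* lies between *hacd-1* and *pqn-54*. Both were looked up after the values of *fpn-1.2* were known. The 3-hydroxyacyl-CoA dehydrogenase gene *hacd-1* had means of 10.64, 11.45 and 11.49 at 4, 20 and 500 uM. It fell by 0.81 from 20 to 4 uM (SE 0.13, adjusted p = 0.0188), lost without 4 uM replicate B or C or any 20 uM array (highest adjusted p = 0.0944) or when only 6 arrays were fitted (0.0718), and was higher by 0.85 at 500 than at 4 uM (SE 0.13, adjusted p = 0.00774), which held in all 9 fits without 1 array. Its correlation with *fpn-1.2* was 0.90 over 9 arrays and -0.27 over the 6 arrays of 20 and 500 uM. The gene on the other side, *pqn-54*, differed the other way by 0.58 at 4 against 20 uM (SE 0.16, adjusted p = 0.198). Of 6 other measured neighbours of the transporter genes 0 passed in limma in any contrast, and 1, *ngn-1* beside *smf-3*, had an unadjusted p = 0.013 (difference 0.32 at 4 against 20 uM, fit without a filter).

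**Figure D5:**
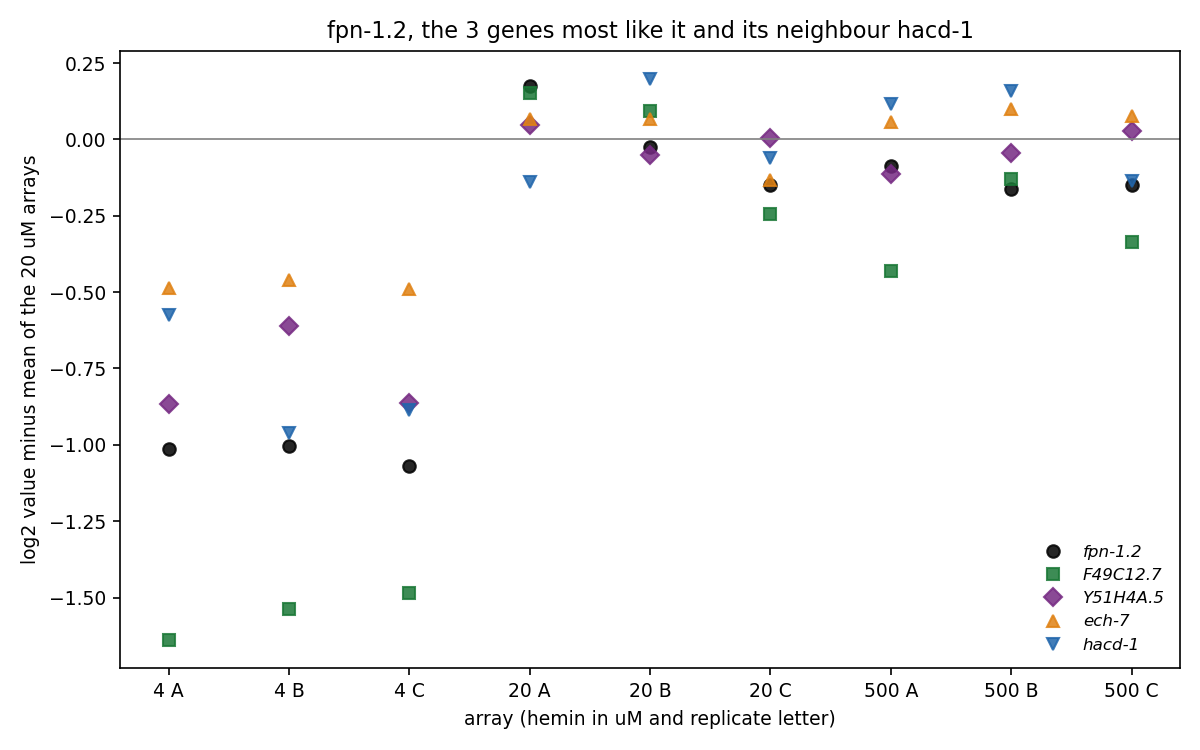
Log2 value minus the mean of the 20 uM arrays (vertical axis) on each array (horizontal axis, hemin in uM and replicate letter) for *fpn-1.2*, the 3 genes most like it over the 9 arrays, and its neighbour *hacd-1*. All 5 are lower on the 4 uM arrays than on the 20 and 500 uM arrays, with the 4 minus 20 uM differences of means running from -1.55 (F49C12.7) to -0.48 (*ech-7*).

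The genes most like *fpn-1.1* were *svh-2* (r = 0.959), *nog-1* (0.936) and *lact-3* (0.927). Those most like *smf-1* were F21A9.1 (0.985), *asd-1* (0.983) and *col-33* (0.976), and those most like *smf-3* were *rnp-4* (0.888), *gtl-2* (0.884) and F45G2.8 (0.871). None of these 9 differed between 4 and 20 or between 500 and 4 uM at an adjusted p under 0.05. For the dim probe sets the closest were *cyp-33D1* (0.983), *sumv-1* (0.963) and R102.10 (0.959) for *fpn-1.3*, and *syg-1* (0.944), *lmd-2* (0.90) and *sto-2* (0.896) for *smf-2*. With 15848 candidates and 9 arrays, correlations of this size were thus found also where neither the 4 against 20 nor the 500 against 4 uM difference passed. Tests of 500 against 20 uM are not given for these genes.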

How the data were processed

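The values deposited by the authors are log2 expression values, 1 for each probe set on each array, already normalized between arrays. MAS5 and RMA are named, per the submitters' processing notes, without saying which of them made the table. Nearly equal quartiles have the form of RMA values, which can compress differences among dim probe sets. Gene names came from the platform annotation, and all 6 transporters matched current RefSeq genes (WBcel235, used for names and neighbours only).

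After removal of 77 control probe sets and the dimmest 25%, 16911 of 22548 were fitted over all 9 arrays with limma 3.58.1 (R 4.3.3), 1 mean per concentration, 6 residual degrees of freedom and variances following the mean level. P-values are two-sided, adjusted by Benjamini-Hochberg within a contrast (threshold 0.05). *fpn-1.3* and *smf-2* come from the fit without a filter. Probe sets of highest mean stood for listed genes. Named were the 6 transporters, list members with the smallest p and the 3 most similar genes per transporter; *hacd-1*, *pqn-54* and *ngn-1* were added after values were seen. The transporters and lists were chosen with earlier results of these data known. The labels call the samples biological replicates. Over the tested probe sets same-letter arrays did not deviate together in most pairs (r of -0.15 to 0.29, over 0.1 in 4 of 9 pairs). Pairs of other letters had r of -0.33 to 0.31, so letters were not used as pairs. For *fpn-1.1* arrays A, B and C deviated from the rest of their group by 0.23, -0.32 and 0.09 at 20 uM. At 500 uM these deviations were 0.28, -0.38 and 0.10, and at 4 uM -0.10, 0.02 and 0.08. Tests with letters as a block are given below. Simulated data had 1 SD per probe set and no correlation between genes; false calls were 4.88%, 4.85% and 7.27% for 4 minus 20, 500 minus 20 and 500 minus 4. Python 3.11.15 and matplotlib 3.10.9 drew the figures.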

Additional observations from a re-analysis of the deposited data

How the results depend on the processing

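The 2 calls of *fpn-1.2* and the absence of any other call among the tested transporters held under quantile normalization, centring, no filter, a filter of 50%, 2 other variance priors, array weights, the fit of 6 arrays, the added 1.6-fold limit and each of 9 fits without 1 array, with adjusted p for *fpn-1.2* up to 0.0127 (4 minus 20) and 0.0103 (500 minus 4). With the replicate block the fall of *fpn-1.2* from 20 to 4 uM stayed at 1.03 (adjusted p = 0.00273) and its difference of 500 minus 4 uM at 0.90 (adjusted p = 0.00397). The block changed no other limma call of a transporter. The exact tests of *fpn-1.2* minus *fpn-1.1* and minus *fpn-1.3* went to an adjusted p = 0.167 each with letters as a block, where no pair can have an unadjusted p under 0.0278 (it was 0.0278 and 0.0556 for these pairs). Without 1 array the adjusted p of these 2 pairs ran from 0.0214 to 0.0429 and from 0.0214 to 0.0643. The filter of 50% left out *smf-3*, *fpn-1.3* and *smf-2*. Small differences without a call turned sign in 14 cases. Over the 9 fits without 1 array the 4 minus 20 difference ran from -0.032 to 0.154 for *fpn-1.3* (negative without 4 uM A), from -0.073 to 0.0367 for *smf-2* (positive without 4 uM B) and from -0.102 to 0.198 for *smf-3*, which was also -0.0753 without 20 uM C and -0.0057 under quantile normalization. For 500 minus 20 it ran from -0.054 to 0.0222 for *fpn-1.3* and from -0.0324 to 0.0737 for *smf-1*, and for 500 minus 4 from -0.174 to 0.0126 for *fpn-1.3* and from -0.0727 to 0.0369 for *smf-2*. The last was also 0.0136 under quantile normalization, 0.0288 under centring and 0.0985 with array weights. The causes were not tested. Counts over all probe sets moved more: 154, 41 and 350 called for 4 minus 20, 500 minus 20 and 500 minus 4 became 899, 204 and 813 with array weights, 315, 182 and 394 without 4 uM A, 85, 202 and 157 in fits of 6 arrays, and as few as 69, 8 and 165 without 1 array. With 3 arrays per group and no detection calls, small changes were often missed: 34%, 32% and 30% of simulated log2 changes of 0.5 were recovered for 4 minus 20, 500 minus 20 and 500 minus 4.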
